A study of Drosophila melanogaster with 2 samples.

Results

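The members were ush (u-shaped), cbt (cabut) and the 5 genes for Drosophila GATA factors, pnr, srp, grn, GATAd and GATAe, 7 of the 13945 protein-coding genes on the chromosome arms. The genes ush and cbt were picked by the strongest peak on the arms, which lies beside them, so the values there are given as a description with no test; the GATA genes were added by their family. For each gene, every peak was taken whose summit lay in the gene body or within 10 kb of it, called in reach below, and this gave 24 distinct peaks of the 6614 in the authors' optimal list on the arms. The data are ChIP-seq peaks of woc fused at its C terminus to eGFP, from 1 transgenic Drosophila melanogaster line, with an antibody against GFP. Chromatin came from whole larvae of both sexes, pooled, in the third instar and already wandering, and their age is not known. The 2 libraries, replicates 1 and 3, were made from separate biosamples and form 1 group with no second condition, so nothing here compares treatments or genotypes. No control library or untagged line was analysed here. Peaks of a whole animal do not show which cells carried woc-eGFP at a gene, and no transcript was measured.

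GATA factors are zinc finger proteins that bind DNA at sites with the core word GATA. In Drosophila, srp directs fat body, blood cell and endoderm fates, GATAe acts with it in the midgut, pnr patterns the dorsal epidermis, the notum bristles and the heart, and grn shapes the posterior spiracles and guides motor axons. The protein ush belongs to the FOG family, which binds GATA factors directly and changes what they do at their targets, and cbt encodes a zinc finger repressor of the Sp1/KLF kind that is linked to sugar sensing and to JNK signalling in dorsal closure. The protein woc is a zinc finger protein that works with the heterochromatin protein HP1c and with Row.

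The genome sequence at 7 peaks is shown. They were picked by signal and place and not by their motifs. They are the highest peaks at ush and cbt, the highest in reach of GATAd and of grn, the GATAd promoter peak and the highest replicate 3 peak in reach of srp. The sequence is dm6, plus strand, 100 bp to each side of the summit. Peaks at ush and cbt come first, at chr2L:481001-481201 in the first intron of ush, chr2L:479931-480131 upstream of cbt and chr2L:530390-530590 in a later intron of ush. They are followed by the GATAd promoter at chr2L:10333559-10333759, the promoter of its neighbour SamDC at chr2L:10339310-10339510, the highest peak in reach of grn at chr3R:8142249-8142449, and a peak upstream of srp at chr3R:15984542-15984742 that only the single libraries held. Capitals mark matches, on either strand, of 7 words: GATAA (the GATA factor core), TATCGATA (the DREF element), GGTCACACT (M1BP), GAGAG (GAGA factor), TGANTCA (AP-1), CACGTG (an E-box) and AGGTCA (a nuclear receptor core site).
ush intron peak: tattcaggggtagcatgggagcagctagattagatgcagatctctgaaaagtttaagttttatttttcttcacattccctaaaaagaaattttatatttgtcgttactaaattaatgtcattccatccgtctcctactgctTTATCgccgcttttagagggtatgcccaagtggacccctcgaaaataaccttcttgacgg
cbt promoter peak: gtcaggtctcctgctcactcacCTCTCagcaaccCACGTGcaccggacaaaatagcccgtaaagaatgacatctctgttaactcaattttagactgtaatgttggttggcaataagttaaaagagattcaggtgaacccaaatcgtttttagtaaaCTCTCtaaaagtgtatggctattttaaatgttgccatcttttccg
distal ush intron peak: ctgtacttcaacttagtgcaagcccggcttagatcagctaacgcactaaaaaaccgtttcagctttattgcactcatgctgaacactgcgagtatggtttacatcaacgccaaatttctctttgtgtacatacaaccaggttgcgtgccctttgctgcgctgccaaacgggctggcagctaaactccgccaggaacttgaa
GATAd promoter peak: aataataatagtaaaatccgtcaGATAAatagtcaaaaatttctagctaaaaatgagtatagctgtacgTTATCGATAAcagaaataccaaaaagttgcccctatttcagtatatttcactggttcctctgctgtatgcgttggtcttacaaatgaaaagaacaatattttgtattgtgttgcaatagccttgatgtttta
SamDC promoter peak: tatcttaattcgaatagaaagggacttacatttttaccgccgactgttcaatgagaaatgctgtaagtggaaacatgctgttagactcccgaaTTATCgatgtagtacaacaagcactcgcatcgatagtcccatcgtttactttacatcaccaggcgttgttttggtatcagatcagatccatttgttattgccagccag
grn downstream peak: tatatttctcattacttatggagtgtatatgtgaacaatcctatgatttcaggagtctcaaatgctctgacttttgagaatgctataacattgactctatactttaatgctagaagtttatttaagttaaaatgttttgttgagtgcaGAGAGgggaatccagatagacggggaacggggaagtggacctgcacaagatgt
srp upstream peak: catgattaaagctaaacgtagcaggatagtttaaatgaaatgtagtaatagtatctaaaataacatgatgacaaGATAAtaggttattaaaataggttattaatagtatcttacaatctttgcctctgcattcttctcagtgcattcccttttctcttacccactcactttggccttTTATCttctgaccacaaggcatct

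The ush intron peak held 1 GATAA match, on the minus strand and 41 bp after the summit. The cbt promoter peak held CACGTG and 2 matches of GAGAG, and the distal ush intron peak held none of the 7 words. At the GATAd promoter TATCGATA lay inside a stretch that also gave 2 GATAA matches end to end, one on each strand, and another GATAA lay further upstream. Over the 24 member peaks, GATAA occurred in 9 (37.5%), against 39.3% of all optimal peaks, 38.1% of pooled peaks below the optimal list and 41.2% of windows of the same length round gene starts. The share of member peaks with the GATA word thus lay within 2 percentage points of that of all optimal peaks. GAGAG occurred in 8 member peaks (33.3%), against 25.01% of all optimal peaks. TATCGATA occurred in 1, AGGTCA in 2 and CACGTG in 1 member peak (4.17%, 8.33% and 4.17%), against 3.54%, 3.51% and 1.86% of all optimal peaks, and neither GGTCACACT nor TGANTCA occurred, against 1.74% and 4.43%. When only 50 bp to each side of the summit were searched, GAGAG was left in 3 member peaks and CACGTG in none. With 24 peaks, each match adds 4.17 percentage points, and a match of letters does not show that a factor binds there.

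The members differed in what lay near them. An optimal summit was in reach of 4 of the 7 members, ush, cbt, GATAd and grn, while srp, GATAe and pnr had none. The same holds for 62.5% of all protein-coding genes and for 75.5% of those of 5 kb or longer, so a count of 4 is near the background and is no result about the members as a set. Within 500 bp of a start site, 2 members had an optimal summit, cbt and GATAd, against 21.9% of all protein-coding genes. The numbers of optimal summits in reach were 16 at ush, 9 at cbt, 5 at GATAd and 3 at grn. All 9 at cbt were among the 16 at ush, because cbt lies inside the first intron of ush on the opposite strand. At least 16 summits were in reach of 17 protein-coding genes, ush included, and at least 9 were in reach of 169, cbt included.

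**Figure D1:**
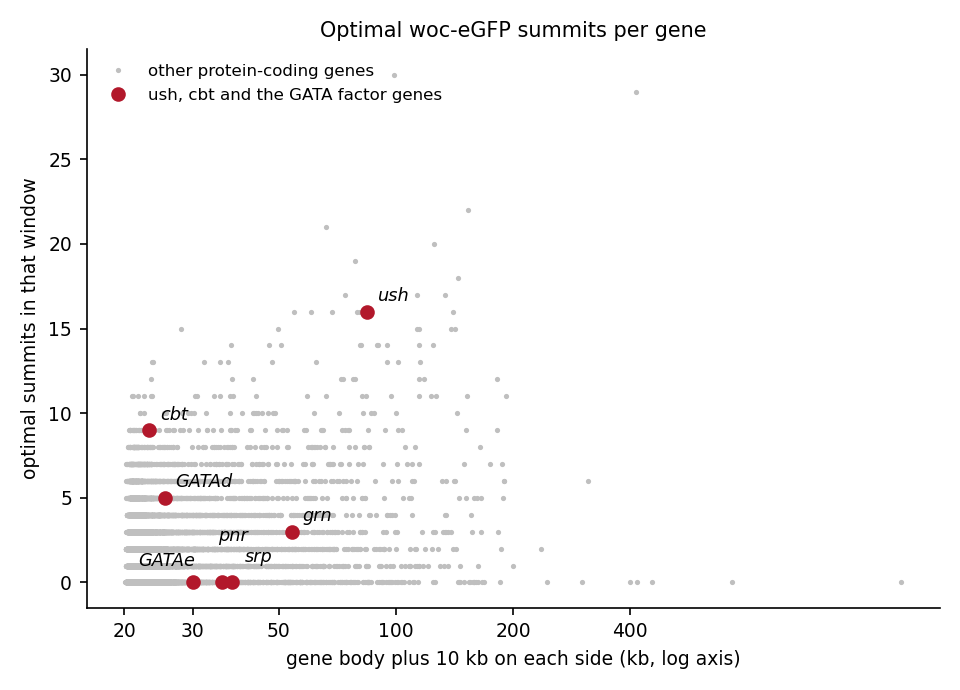
Number of optimal summits in reach (y axis) against the length of the gene body plus 10 kb on each side (x axis, kb, log axis), with 1 point per protein-coding gene and ush, cbt and the GATA factor genes in red. ush lies high with 16 summits, cbt has 9 in a short window, and srp, GATAe and pnr lie at 0.

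Signal is the authors' own height for each peak, in a unit they do not state, and the lists are not known to share a scale. The strongest peak on the arms, at chr2L:480572-481411 in the first intron of ush, had a signal of 2866 in the pooled data, 758 in replicate 1 and 2150 in replicate 3. It ranked 1 in each of these lists. The libraries' own summits lay 10 bp to either side of the pooled one. This summit is in ush, yet the nearest start site is that of cbt, 1413 bp away. The gene to which the peak is given therefore depends on the rule used, and the data hold no measurement that settles it.

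The cbt promoter itself carried a second peak, at chr2L:479867-480307, with its summit 343 bp upstream of the single cbt start site. Its signal was 645 in the pooled data (rank 325), 189.6 in replicate 1 (rank 426) and 471 in replicate 3 (rank 299). A weak optimal peak lay 832 bp downstream of the cbt start, with 99.7 in the pooled data, 57.2 in replicate 1 and 50.3 in replicate 3. By overlap, it was the only one of the ush and cbt peaks with a higher value in replicate 1. Its replicate 3 summit lay 113 bp from the pooled one, and the lists have no known common scale. Together these peaks flank the cbt start on both sides, and the strong ones lie upstream of it.

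None of the 4 annotated start sites of ush had an optimal summit within 500 bp. This is common, since only 21.9% of all protein-coding genes had one. The start next to MED15, a Mediator subunit gene, had a pooled peak of 86.5 below the optimal list, 56 bp upstream, with 55.2 in replicate 1 and 32.2 in replicate 3. The start inside the gene that lies nearest had 58.0, with 30.2 in replicate 1 and 25.1 in replicate 3, and the pair of starts further along shared a pooled peak of 77.1. In the optimal list, the 13 summits inside the ush body were thus all in its introns, and none lay at an ush start. Those near the cbt start could as well be given to cbt. The replicate 1 library, however, placed the first of the ush starts among its 6636 highest peaks, as many as the optimal list holds.

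Further along ush, the highest peak outside its first intron lay at chr2L:530276-530628, 6754 bp downstream of the last ush start, in an intron that all 5 transcripts of ush span. It had 528 in the pooled data (rank 545), 152 in replicate 1 (rank 732) and 375 in replicate 3 (rank 526). The peak at chr2L:485802-485937 had 240.1 in the pooled data, 78.0 in replicate 1 and 157 in replicate 3. The remaining ush peaks were modest: the 12 others in reach had pooled signals from 99.7 to 199.6, and 11 of them lay below the median of 183 over all optimal peaks on the arms. Of these 12, 3 lay nearest to a start of CG4297, upstream of ush, and one of these was its promoter peak of 155. A peak of 100.2 near the end of ush lay nearest to the start of lwr, the gene for the SUMO conjugating enzyme, whose own promoter had no optimal summit. Per 10 kb of gene body and flanks there were 1.90 optimal summits at ush and 3.87 at cbt, against a mean of 0.494 over the arms. That mean covers all bases of the arms, and no mean over windows round genes was taken. A dense short window was not particular to cbt. CG14915, named here after its values were seen, had 8 summits in 20506 bp, against 9 in 23243 bp at cbt. The density at ush was not particular to it, as GATAd had 1.96, while grn had 0.555. The cbt window lies inside that of ush.

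**Figure D2:**
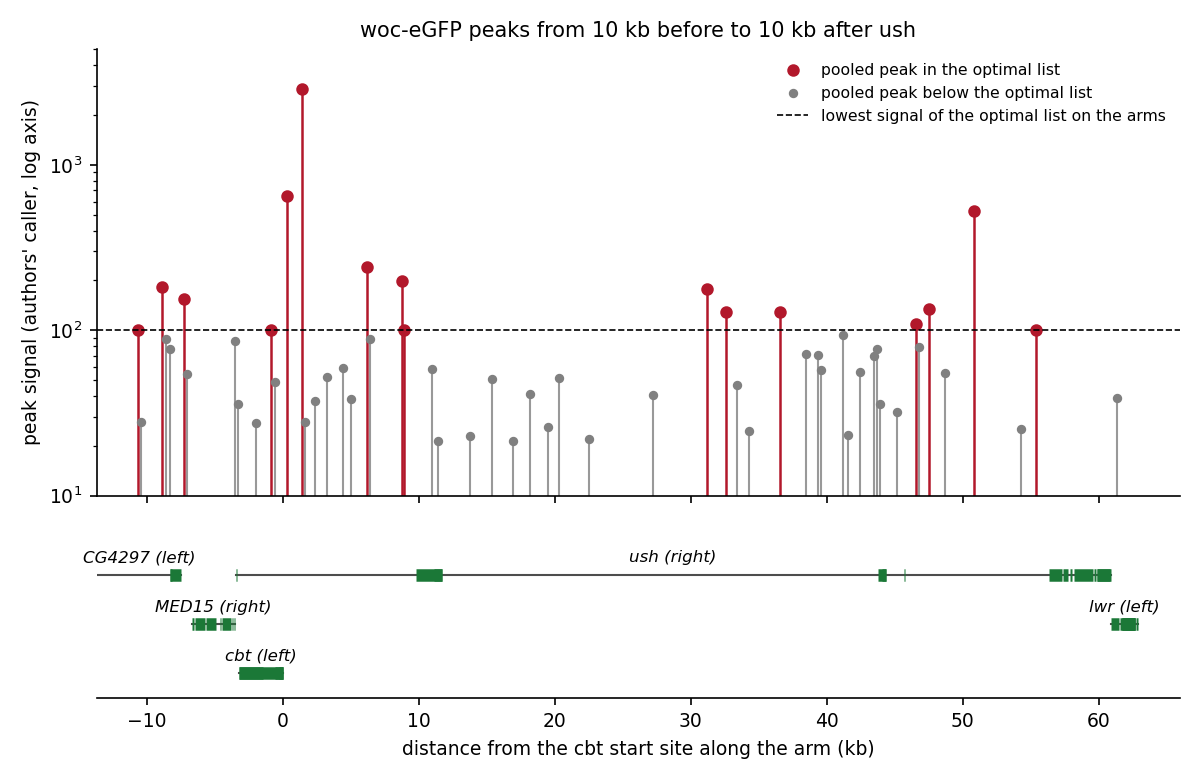
Signal of each pooled peak (y axis, log axis) against its distance from the cbt start site (x axis, kb), for ush with 10 kb on each side. Red points are optimal peaks, grey points are pooled peaks below the optimal list, the dashed line is the lowest optimal signal on the arms, and the lower panel shows exons in green with the direction of each gene. The highest point, 2866, stands upstream of cbt and inside the first ush intron, and a further peak of 528 lies near the far end of ush.

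Among the GATA factor genes, GATAd had the most optimal summits in reach. Its promoter peak, 75 bp upstream of the first start, was one of the weakest in the list, with a pooled signal of 101 (rank 6502), 67.2 in replicate 1 and 73.6 in replicate 3. The replicate 1 summit lay at the second GATAd start, 255 bp from the pooled one. A higher peak lay in its first intron, at chr2L:10334879-10335388, with 199 in the pooled data, 119.8 in replicate 1 (rank 1218) and 74.98 in replicate 3 (rank 6050). These were the peaks for which GATAd had the nearest start site.

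The remaining peaks in reach of GATAd stood at its neighbours. The highest, 303 in the pooled data, 142 in replicate 1 and 157 in replicate 3, had its summit 47 bp upstream of SamDC, the gene for the polyamine enzyme S-adenosylmethionine decarboxylase, just past the end of GATAd. A second summit there, of 128, overlapped it and lay in the coding sequence of SamDC. A peak of 148 lay 16 bp downstream of the start of CG31715. When a peak was counted only for the gene with the nearest start, GATAd kept 2 summits.

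At grn no optimal summit lay at the single start site; the nearest was 12086 bp away. A pooled peak of 26.1 lay 108 bp upstream of that start, with at most 32.2 in replicate 1 and 18.0 in replicate 3 within 500 bp. Its gene body held a peak of 182 in intron 5 (63.4 in replicate 1 and 125 in replicate 3) and one of 115.4 in intron 2. The intron 2 peak had no overlapping peak in the replicate 1 list, and 98.8 in replicate 3 (rank 4508). The highest peak in reach, at chr3R:8142294-8142421, was intergenic and 5019 bp past the 3' end of grn. It had 220.5 in the pooled data, 53.3 in replicate 1 and 167 in replicate 3, and the nearest start of a protein-coding gene was that of Arl8, a small GTPase gene, 15744 bp away.

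The genes srp, GATAe and pnr lie close together on 3R, all in the same direction, and no optimal summit fell between 15974358 and 16072446. This stretch of 98088 bp was number 248 by length among 6608 such gaps, and 3.75% of gaps were as long or longer, against a median of 4976.5 bp. The stretch was looked at because these genes had no optimal summit in reach. The share counts gaps and not the bases they cover, and long gaps cover more of the arms. It therefore does not show that such a place is rare for a gene. The gap was bounded by a peak of 144 at 1060 bp from a start of Hel89B, 11794 bp before srp, and by one of 316 at 392 bp from a start of Mhcl, 30650 bp after pnr. Weak pooled peaks were present. In reach there were 10 at srp, 7 at GATAe and 7 at pnr, some of them shared, or 2.64, 2.33 and 1.96 per 10 kb, against a mean of 2.24 over the arms. The corresponding values were 6.64 at ush, 9.90 at cbt, 5.89 at GATAd and 5.18 at grn. In that list of peaks and background, the cluster therefore had about the density of the arms as a whole and the other members had more.

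In the cluster the highest pooled peak within a gene was in the first intron of GATAe, 417 bp from its second start, with 64.5 in the pooled data (rank 10137), 35.0 in replicate 1 and 31.8 in replicate 3. For pnr it was 55.9, in the 3' untranslated region, with 34.4 in replicate 1 and 20.5 in replicate 3. At srp it was 47.1, in the first intron, with 23.8 in replicate 1 and 20.8 in replicate 3. No pooled peak lay within 500 bp of a pnr start. All of these are far below the lowest optimal signal in reach of a member, 99.7, and the highest pooled value in reach of a member that fell below the list was 93.4, inside ush.

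The lists of the single libraries held a site at srp that the pooled list did not. Peaks in reach of srp numbered 22 in the replicate 1 list and 8 in the replicate 3 list, against 10 and 7 at GATAe and 3 and 8 at pnr. In replicate 1 the highest peak in reach of srp had its summit at 15984587, 1565 bp upstream of the first start, with a signal of 40.4 and rank 6404. In replicate 3 it was at 15984642, 1510 bp upstream, with 95.9 and rank 4645. These summits lay 55 bp apart, and both peaks were among the 6636 highest of their library. No pooled peak overlapped either of them, and the nearest pooled summit was 2739 bp away. A second replicate 1 peak without a pooled one lay further upstream, at 15983553, with 40.0 (rank 6494), and replicate 3 had 42.8 at 15983680 (rank 10112). Over all arms, 4009 of the highest replicate 1 peaks had a replicate 3 summit of that rank within 100 bp, and 16 of these, the srp site included, had no overlapping pooled peak. The absence of srp from the optimal list thus does not mean that the libraries recorded nothing there. Why the pooled list lacks the site was not tested.

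**Figure D3:**
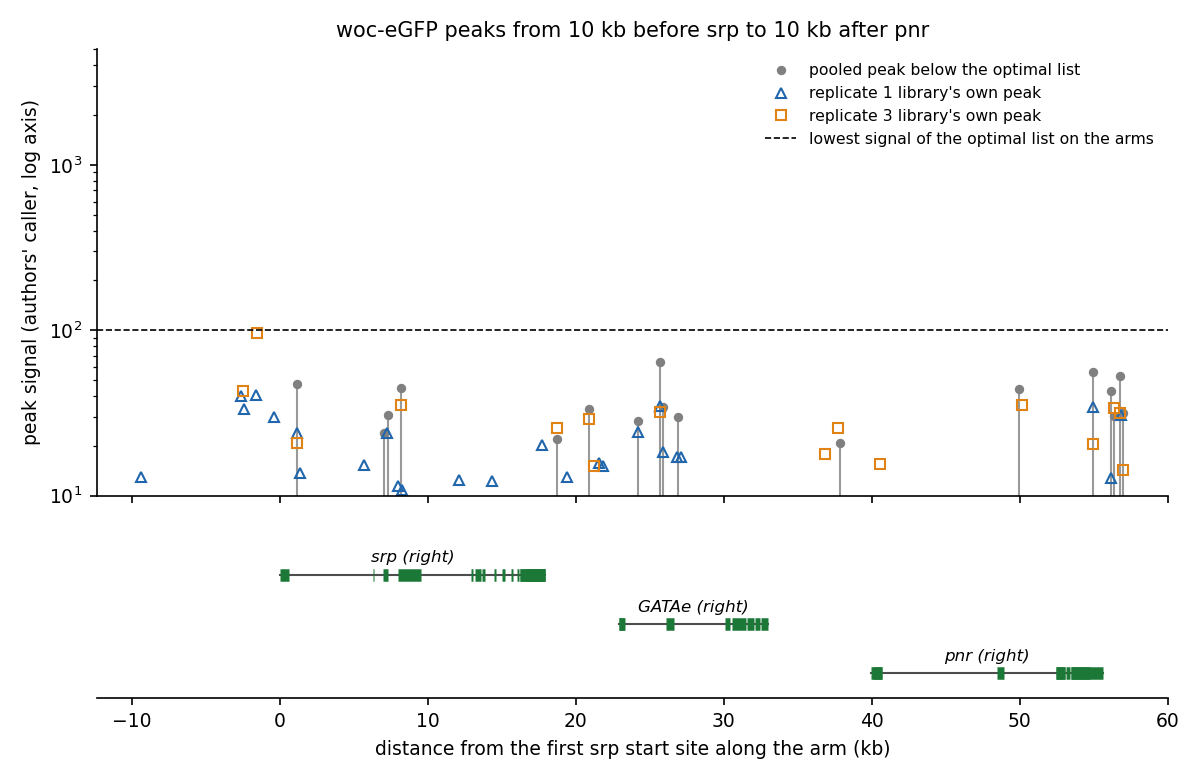
Signal of peaks (y axis, log axis, the same range as for ush) against distance from the first srp start (x axis, kb), from 10 kb before srp to 10 kb after pnr. Grey points are pooled peaks, triangles and squares are the replicate 1 and replicate 3 libraries' own peaks, the dashed line is the lowest optimal signal and applies to pooled peaks only, and the lower panel shows exons in green. No pooled peak reaches the line, and the site upstream of srp, 40.4 in replicate 1 and 95.9 in replicate 3, has no grey point.

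Signals in the replicate 3 library were higher at most peaks, as in the whole list. The ratio of replicate 3 to replicate 1 had a median of 2.01 over the 23 member peaks matched in both libraries, against 2.07 over 6474 optimal peaks (interquartile range 1.54 to 2.85). The ratio was 2.84 at the strongest peak, 2.48 at the cbt promoter and 2.47 at the distal ush intron peak. By overlap, the ratio was lower at all 5 peaks in reach of GATAd, from 0.626 in the intron to 1.21 at CG31715. These values lay below the lower quartile of all optimal peaks. However, the second SamDC summit took the library values of the first. The library summits within 100 bp of it had 37.5 in replicate 1 and 89.5 in replicate 3, so its low ratio rests on the overlap rule. The GATAd promoter peak had no replicate 1 summit within 100 bp. The highest ratio by overlap, 4.36, was at an ush intron peak with 21.6 in replicate 1 and 94.1 in replicate 3. There the replicate 1 summit lay 16 bp from the pooled one and the replicate 3 summit 148 bp. The 2 values may thus not belong to the same summit. Of the 24 member peaks, 16 were among the 6636 highest of both libraries, 6 of replicate 3 only, 1 of replicate 1 only and 1 of neither. Overlapping member peaks, a pair in the first ush intron and a pair at SamDC, took the same library value. These ratios describe 2 lists with no stated common scale, and 1 value per library gives no error for them.

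**Figure D4:**
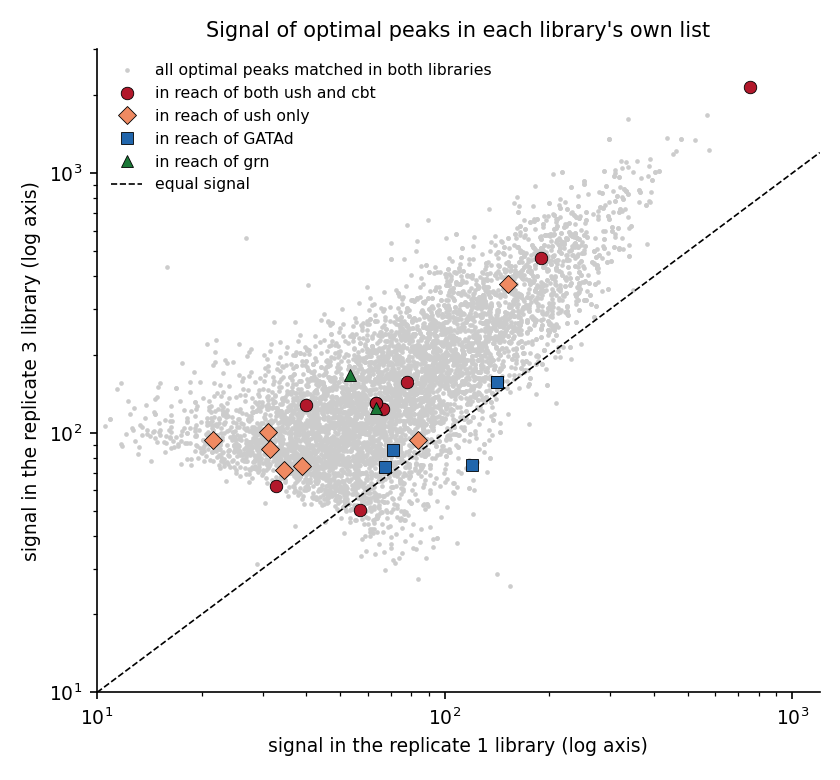
Signal of each optimal peak in the replicate 3 library (y axis, log axis) against the replicate 1 library (x axis, log axis), in grey for all 6474 matched peaks and in colour for the 23 member peaks. The dashed line marks equal signal, and member peaks that take the same library value coincide. The strongest peak stands alone at 758 in replicate 1 and 2150 in replicate 3, and the GATAd peaks lie near or below the line.

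The genes with the pattern most like that of ush were sought over the highest signal in reach in the optimal and both libraries' lists and the number of optimal summits, as a distance on the log2 scale over genes more than 50 kb away. The nearest were mr, which encodes a subunit of the anaphase-promoting complex, CG10904 and CG3065, each at a distance of 1.58. They are neighbours and take their values from 1 shared peak of 1803 in the pooled data, 478 in replicate 1 and 1359 in replicate 3, with 7 optimal summits in reach of each.

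Genes linked to the members as cofactors, or by tissue, pathway or family, were described from 8 lists. Of 86 genes, 20 had an optimal summit within 500 bp of a start (23.3%), close to the 21.9% of all protein-coding genes, and their median signal was 200.4, against 238 over all such genes. By list, the highest share but one was in the 15 genes of sugar sensing and JNK signalling that are tied to cbt, of which 7 had such a summit (46.7%, median signal 281). The highest were Atf3, a transcription factor gene of the AP-1 kind (551 in the pooled data, 128 in replicate 1 and 415 in replicate 3), and bigmax, which encodes the Mlx partner of the sugar sensor Mondo (529, with 190.2 and 339). Next came Sik3, a kinase gene (502, with 152 and 355), and kay, the fly Fos gene (281, with 146 and 212). The gene for the JNK bsk had none. The other called genes of the list, named after their values were seen, were bmm, puc and msn, at 235, 205 and 103.

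Of 8 genes for cofactors of GATA factors, 3 had a promoter summit (37.5%, against 21.9% of all protein-coding genes). All were weak: tou (111), Ssdp (102) and Bx, the fly LMO gene (99.97). With a window of 1000 bp this list had 5 such genes, against 25.04% of all protein-coding genes, and with the upper part of the optimal list, its 3318 highest peaks, it had 0, against 14.2%. The gene ap had none, nor had Chi, the LIM domain binding protein that bridges pnr with proneural factors and is named here after its values were seen; it had no optimal summit in reach either. Of 6 genes of the amnioserosa, a tissue in which ush and srp act during germ band retraction, 3 had one: peb (182), InR (144) and Egfr (107), but not Kr. This was the highest share of the lists, 50%, against 21.9% of all protein-coding genes. With the 3318 highest peaks the amnioserosa list had 0, against 14.2%. Among 11 notum and proneural genes, where pnr and ush act on achaete and scute, only hry had one (223), a share of 9.09%. The gene ac had no optimal summit in reach.

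Among 10 heart genes, tin, the cardiac homeobox gene, had 283 and Mef2 had 196, while bap had none. Among 18 blood cell genes the called ones were PPO3, a lamellocyte phenoloxidase gene (218), and dome, the JAK/STAT receptor gene (100.4, with no overlapping peak in the replicate 1 list), and Col4a1 had none. Of 10 midgut genes, fkh had 194 and bin had none. In the Sp1/KLF family, to which cbt belongs, CG3065 was the one called gene of 9 (257), and btd had none. The share was 20% in the heart list, 11.1% in the blood cell list, 10% in the midgut list and 11.1% in the Sp1/KLF list. Of all protein-coding genes, 21.9% had such a summit. These lists hold few genes, a summit within 500 bp can belong to a neighbour, and no list was tested against the rest.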

How the data were processed

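Peaks of woc-eGFP ChIP-seq in whole larvae were used as the authors deposited them, on dm6, in narrowPeak format: a relaxed list of peaks and background for each library and for the pooled alignments, each called against a control alignment, and an optimal list after an irreproducible discovery rate (IDR) threshold, per the text deposited with each library. The signal and the −log10 q of a peak are the authors' deposited values. No caller, aligner or threshold is given in the sources used here. Read totals were not used, so depth is unknown. Lists on dm3 were not used.

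Summits were placed against the Ensembl release 115 annotation (BDGP 6.54) with Python 3.11.15, on 6 arms, and sequence was read from the matching assembly, credited to RefSeq; every peak end lay inside its chromosome. Coordinates are 1-based. A library's value at a peak is its highest-signal peak that overlaps by 1 bp or more. The reach and motif steps were tested on planted peaks and words. No significance test was made: there is 1 group, and the members and lists were chosen with earlier results of these data known. Named genes were all members, genes nearest to a member peak, from each list the 4 with the highest promoter signal and the alphabetically first with none, and the 3 most like ush. Hel89B and Mhcl, which bound a gap, MED15, which adjoins ush, and the genes said to be named after their values were seen fall outside this rule. All list genes were found; hry and Delta replaced older symbols. Alternatives changed 1 choice at a time.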

Additional observations from a re-analysis of the deposited data

How the results depend on the processing

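No paired analysis was possible because the 2 libraries form 1 group. Of the values recomputed for the main results, 80 stayed within the spread of the libraries or within 1.5 times of the count and 23 did not. The tally does not measure robustness, because some values could not have moved. A peak among the 3318 highest stays the highest in reach when the lower ones are dropped. A gene with no summit gains none from a shorter reach or list. Peaks shared by ush and cbt were counted for each gene. For signals, the spread came from the same 2 libraries that served as alternatives, and the lists are not known to share a scale. The number of members with a summit in reach was 4 or 5, while the share of all protein-coding genes was 48.8% with a reach of 5 kb, 78.6% with 20 kb and 48.7% with the 3318 highest optimal peaks. With a reach of 5 kb, cbt had 4 summits; with 20 kb, srp had 2 and GATAd had 9. With the 3318 optimal peaks of highest signal, ush had 5, cbt 4, grn 1 and GATAd 2, 1 member had a promoter summit (cbt), and 12 list genes had one, against 14.2% of all protein-coding genes. When a peak counted only for the gene with the nearest start, ush had 9 summits (highest signal 528), cbt 3 and GATAd 2 (199). The strongest peak then belongs to cbt alone. Under that rule 4 members had a summit, against 24.8% of all protein-coding genes, but ush and cbt were picked by their strongest peak. With a promoter window of 250 bp, 1 member had a summit (GATAd), against 18.1% of all protein-coding genes. With 1 library's 6636 highest peaks in place of the optimal list, srp had 1 to 2 summits, and the highest signals, on each library's own scale, were 758 to 2150 at ush and at cbt, 63.4 to 167 at grn and 142 to 157 at GATAd. Replicate 1 alone added an ush start to the promoters called. Matching by a summit within 100 bp gave 18 member peaks a replicate 1 value and 22 a replicate 3 value, against 23 and 24 by overlap. Of the values for single lists and motifs, 8 moved. Depth is unknown, and no limit from it can be given.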

Other observations

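Beside the srp site, 15 other sites were among the 6636 highest peaks of both libraries, with summits within 100 bp, and had no overlapping peak in the pooled list. Of these, 13 had the replicate 1 summit within 133 bp of a start site. At cl the signal was 207.4 in replicate 1 and 206.6 in replicate 3, 49 bp from the start and 3090 bp from the nearest pooled summit. At PIG-A, a gene of GPI anchor synthesis, it was 157 in replicate 1 and 252 in replicate 3, 98 bp from the start and 21050 bp from the nearest pooled summit. These genes were chosen after their values were seen, and the cause was not tested. A gene without an optimal peak in these lists can therefore still have a peak in each library.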
